A study of Mus musculus with 116 samples.

Results

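FDB1 cells, a factor-dependent mouse myeloid line, were compared after 48 h in GM-CSF with parental cells at 0 h, the moment at which IL-3 was removed. The 4 arrays of this comparison were chosen because their titles pair the 48 h GM-CSF RNA with the 0 h RNA, and the series holds 112 others. Values by array come from these 4, while fitted differences, SEs and calls use RNA levels solved over all arrays, of which 8 hold the 48 h RNAs and 32 the 0 h RNAs. There were 2 replicates, each hybridised in both dye orders. Every array value was turned so that a positive number means more RNA at 48 h, and the dye pair was averaged within each replicate.

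Cells were kept in Iscove's medium containing IL-3 at 500 U/mL and fetal calf serum at 10%. For the 48 h group they were washed 3 times and moved to GM-CSF at 500 U/mL. The 0 h group is the parental line in IL-3, which the series design treats as the same state as GM-CSF at 0 h. In replicate 1 both channels are labelled as GM-CSF cells, and in replicate 2 the 0 h RNA is labelled as IL-3 cells. The other arrays hold the remaining GM-CSF times and FDB1 cells that express a receptor mutant, FI-Delta or V449E, in 28 comparisons among 18 conditions. The FI-Delta cells used below were grown and washed in the same way, but after the removal of IL-3 they received no factor for 48 h. The labels do not say whether the line is a clone or whether each replicate came from a culture of its own. The p-values therefore reflect only how these RNA samples differ from each other, which may be technical spread.

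GM-CSF and IL-3 act through receptors that pair a cytokine-specific alpha chain with a shared beta chain, and both signal through JAK2 and STAT5. FDB1 cells are known to proliferate in IL-3 and to differentiate along the granulocyte and macrophage path in GM-CSF. Basophil and mast cell genes depend on GATA factors, and macrophage genes on PU.1 and the C/EBP family.

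Array values are given as log2 ratios of 48 h over 0 h, the likely scale and direction of the deposited values. Ratios give no level in a single RNA, so whether a marker was present could not be checked, only how it moved. The medians of the 4 arrays lay between -0.0045 and 0.0034, and their median absolute deviations between 0.167 and 0.218. Before the signs were turned, the arrays of a dye pair correlated at -0.445 in replicate 1 and at -0.249 in replicate 2 across probes, the sign that a dye swap gives. Replicate 1 was hybridised on the first print run and replicate 2 on the second, so on these arrays replicate and print run cannot be told apart.

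At 48 h, lectin receptors such as Clec4n and Clec5a, the Bcl2a1 survival genes, Gpr84 and Id2 were higher. Tmtc2, F2r and the granule docking pair Sytl3 and Rab27b were lower. So were the mast cell and basophil genes Cpa3, Fcer1a and Mcpt8, though other markers of these cells, such as Kit, did not pass. Cpa3 lost its call when the fit left out any 1 of the 4 RNAs. Gpr84, Rab27b, Fcer1a and Mcpt8 lost theirs in at least 1 such fit. The limma fit over the levels of all 36 RNAs put 163 of 21797 probes higher (0.748%) and 125 lower (0.573%) at an adjusted p under 0.05. At this threshold 24 of the higher and 14 of the lower probes had at least a 2-fold difference. Of the 288 probes past it, 278 had the same sign on all 4 arrays, or 96.5%, against 20.2% of all probes. These 4 arrays enter the fit, so called probes tend to share a sign on them, and the share is no separate support. The median difference over all probes was 0.00069 with a median SE of 0.0904. Across all probes the replicate 1 and replicate 2 ratios correlated at 0.284, a description over probes that are not independent. Without parental 0 h replicate 1 the count fell to 45, with 31 higher and 14 lower, and without any 1 of the other 3 RNAs it lay between 144 and 183. The split turned without parental 0 h replicate 2, to 58 higher and 125 lower. With the 4 arrays alone 168 probes passed, of which 118 were among the 288. All 288 kept their sign in each of these fits, which share RNAs with the fit that picked them, so this too is no separate support.

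**Figure D1:**
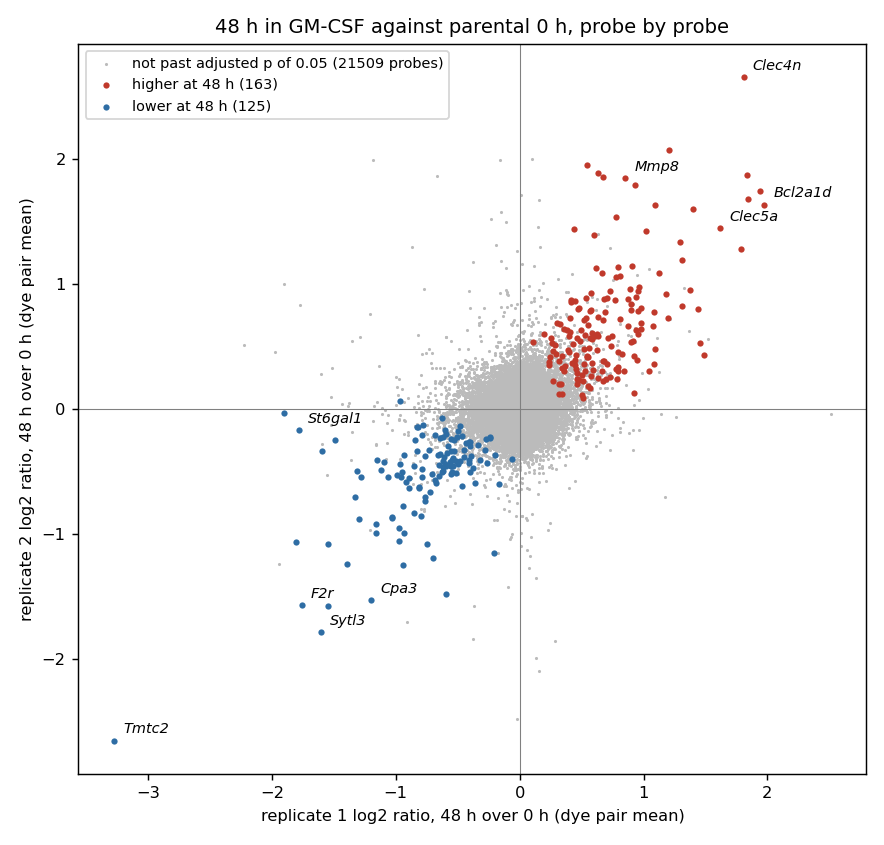
Each point is a probe, with the replicate 1 log2 ratio of 48 h over 0 h on the horizontal axis and the replicate 2 ratio on the vertical axis, each the mean of a dye pair. The 163 higher and 125 lower probes lie mostly in the upper right and lower left, and St6gal1 is low in replicate 1 but near 0 in replicate 2.

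Survival genes stood among the highest. The Bcl2a1 genes encode A1, a BCL2 family protein that holds back apoptosis, and lie as near-identical copies on chromosome 9. The Bcl2a1d probe read 2.04 and 1.91 in replicate 1 and 1.55 and 1.72 in replicate 2, where the 48 h RNA was in Cy5 for the first value of each pair and in Cy3 for the second. All 4 values lay far above 0 and within 0.5 of each other. The fitted difference was 1.85 (SE 0.15, adjusted p = 1.14e-07), a 3.61-fold higher level. Bcl2a1a read 2.28 and 1.30 in replicate 1 and 0.78 and 1.78 in replicate 2 and was fitted at 1.58 (SE 0.21, adjusted p = 0.000159). Bcl2a1c read 1.13 and 1.66 in replicate 1 and 1.68 and 1.51 in replicate 2 and was fitted at 1.55 (SE 0.20, adjusted p = 0.000104). The probes of such copies can bind each other's transcripts, so the 3 values are not independent. All 3 stayed past the threshold without any 1 of the 4 RNAs. Of 30 measured genes of the BCL2 family and cell death, these 3 were higher and 0 lower (1 without parental 0 h replicate 2), against 0.98% higher and 0.603% lower among 15096 gene symbols. The median of the list was 0.04, beside 0.0054 over all symbols. Bcl2l1, which encodes BCL-XL, read 0.00 (adjusted p = 0.997), and Mcl1 0.34 (adjusted p = 0.12).

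The highest named probe was that of Clec4n, which encodes dectin-2, a C-type lectin receptor for fungal mannans. It read 1.95 and 1.67 in replicate 1 and 2.92 and 2.38 in replicate 2. Replicate 2 was the higher, and no array was below 1.6. The fitted difference was 1.89 (SE 0.26, adjusted p = 0.000173), or 3.71-fold. Clec5a, whose product signals through the adaptor DAP12, read 2.00 and 1.24 in replicate 1 and 1.42 and 1.46 in replicate 2 and was fitted at 1.47 (SE 0.14, adjusted p = 1.32e-06). Clec4d, another C-type lectin of myeloid cells, read 0.69 and 0.66 in replicate 1 and 2.08 and 1.62 in replicate 2, with replicate 2 again well above replicate 1. Its difference was 1.12 (SE 0.23, adjusted p = 0.0119). Pilra, an inhibitory immunoglobulin-type receptor, was fitted at 0.99 (adjusted p = 0.00149). In the list of C-type lectin and pattern recognition receptors 9 of 26 measured genes were higher and 0 lower, with a median of 0.21. The 5 others that rose were Tlr2, Siglece, Sirpa, Clec7a and Cd33, from 0.60 to 0.86. Clec4e, which encodes the lectin Mincle, stood at 0.15 (adjusted p = 0.939). With 1 RNA left out, 4 or 5 members of the list passed. Clec4n and Clec5a kept their calls in each of these fits, Pilra lost its call without parental 0 h replicate 1 (0.92), and Clec4d without parental 0 h replicate 2 (0.51) or either 48 h RNA.

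**Figure D2:**
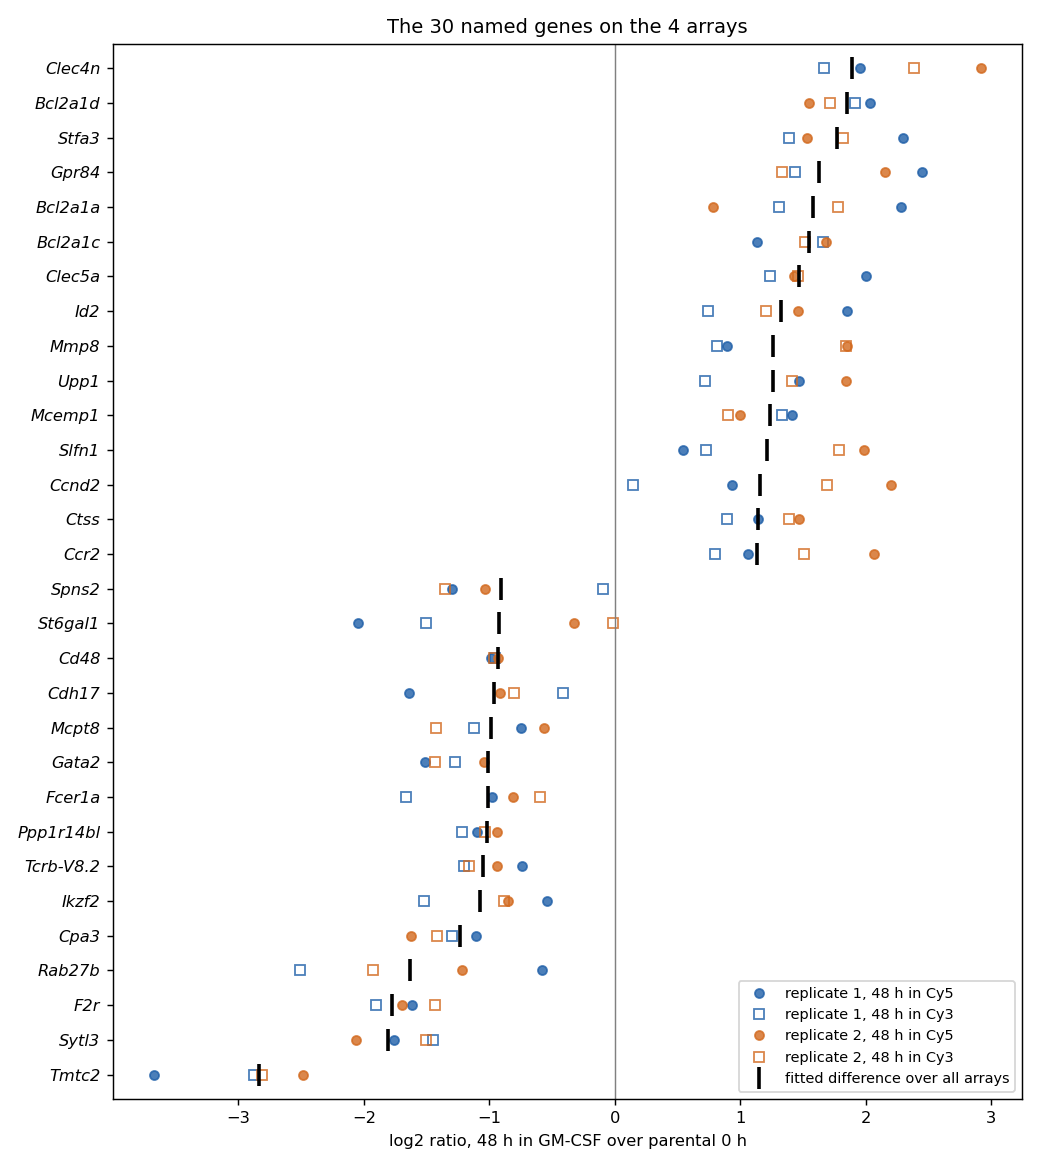
Each row is 1 of the 30 named genes, the 15 highest and 15 lowest, with the log2 ratio of 48 h over 0 h on the horizontal axis. Circles and squares are the 4 arrays, coloured by replicate, and the bar is the fitted difference. Only genes with 1 sign on all 4 arrays were eligible, so the arrays of a gene lie on 1 side of 0 by choice. St6gal1 on a replicate 2 array is almost at 0.

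Gpr84, a receptor for medium-chain fatty acids on phagocytes, read 2.45 and 1.43 in replicate 1 and 2.16 and 1.33 in replicate 2. In both replicates the array with the 48 h RNA in Cy5 was the higher. Its fitted difference was 1.62 (SE 0.24, adjusted p = 0.000426). Stfa3, a cysteine protease inhibitor of the stefin A cluster, read 2.30 and 1.39 in replicate 1 and 1.53 and 1.82 in replicate 2 and was fitted at 1.77 (SE 0.40, adjusted p = 0.0234). Mmp8, the neutrophil collagenase, read 0.89 and 0.81 in replicate 1 and 1.85 and 1.84 in replicate 2, so the replicates did not overlap. Its difference was 1.26 (SE 0.21, adjusted p = 0.00223). Upp1, which splits uridine, was fitted at 1.26 (adjusted p = 0.000613). Mcemp1, a myeloid membrane protein, was fitted at 1.24 (adjusted p = 0.00214). Slfn1, a schlafen gene tied to growth arrest in lymphocytes, read 0.54 and 0.73 in replicate 1 and 1.98 and 1.79 in replicate 2, again with replicate 2 above replicate 1. It was fitted at 1.21 (SE 0.27, adjusted p = 0.0211). The calls of Stfa3 and Gpr84 were lost without parental 0 h replicate 1 (1.31 and 1.26), as was that of Mcemp1 (1.09). Those of Mmp8 and Slfn1 were lost without parental 0 h replicate 2 (0.76 and 0.72), and those of Stfa3 and Slfn1 without 48 h replicate 2 (1.38 and 1.01).

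Macrophage genes made up the list with the most called genes, but lists differ in length and share members such as Ctss, Cd68 and Clec4d. Over all symbols 0.98% were higher and 0.603% lower, which is the background for every list of 48 h against 0 h. Of 51 measured macrophage and monocyte genes, 12 were higher and 0 lower, 48 had a difference above 0, and the median was 0.37. The median was 0.36 in replicate 1 and 0.44 in replicate 2. Ctss, the lysosomal protease cathepsin S, read 1.14 and 0.90 in replicate 1 and 1.46 and 1.38 in replicate 2 and was fitted at 1.14 (SE 0.21, adjusted p = 0.00546). Ccr2, the receptor that draws monocytes to Ccl2, read 1.06 and 0.80 in replicate 1 and 2.07 and 1.51 in replicate 2 and was fitted at 1.13 (SE 0.19, adjusted p = 0.00206). Cd68, a lysosomal membrane glycoprotein of macrophages, read 1.44 and 0.91 in replicate 1 and 1.06 and 0.77 in replicate 2. All 4 arrays agreed on a rise, and the fitted difference of 1.00 (SE 0.15, adjusted p = 0.000653) was a 2.00-fold higher level. Of the defining macrophage markers, Mpeg1 (0.92, adjusted p = 0.0469) and Fcgr1 (0.77, adjusted p = 0.00508) also rose. Itgam, the integrin CD11b, was at 0.61 (adjusted p = 0.114), Cd14 at 0.65 (adjusted p = 0.289), Lyz2 at 0.26 (adjusted p = 0.383) and Adgre1, a macrophage adhesion receptor, at -0.29 (adjusted p = 0.647). Between 2 and 7 genes of the list passed with 1 RNA left out, the lowest count being without parental 0 h replicate 2, while the median stayed between 0.32 and 0.50. Ctss lost its call without parental 0 h replicate 2 (0.74) or 48 h replicate 1 (0.97), and Ccr2 without parental 0 h replicate 2 (0.57).

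Fewer lysosome and oxidase genes passed. Of 49 measured lysosome genes 4 were higher and 0 lower, with 41 above 0 and a median of 0.17. They were Ctss, Cd68, Acp2, a lysosomal acid phosphatase (0.41, adjusted p = 0.0133), and Mcoln1, the lysosomal calcium channel (0.32, adjusted p = 0.0381). Of 5 measured NADPH oxidase genes, 1 was higher, the GTPase Rac2 at 0.29 (adjusted p = 0.0443), and all 5 were above 0. Among 28 genes of iron and oxidative defence, Slc11a1, the phagosomal metal transporter, was higher at 0.90 (adjusted p = 0.0119). Gsr, the glutathione reductase, was also higher at 0.51 (adjusted p = 0.0483), and Sod1 was lower at -0.34 (adjusted p = 0.0182). Gsr, Sod1, Acp2 and Rac2 lost their calls in each fit with 1 of the 4 RNAs left out, and Mcoln1 in 3 of 4, as did Slc11a1.

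Granulocyte genes were mixed. Of 25 measured late granule and surface genes of neutrophils 2 were higher, Mmp8 and the acute phase protein haptoglobin, Hp, and 0 lower, with a median of 0.12. Hp read 1.45 and 0.95 in replicate 1 and 0.64 and 0.82 in replicate 2 and was fitted at 0.96 (SE 0.14, adjusted p = 0.00067), but lost its call without parental 0 h replicate 1 (0.80). Ltf, which encodes lactoferrin, read -0.87 and -0.94 in replicate 1 and -1.61 and -1.80 in replicate 2, all below 0. The fit gave -1.10 (SE 0.61, adjusted p = 0.554). Ngp, another secondary granule protein, stood at -0.99 (SE 0.53, adjusted p = 0.523), and Lcn2, lipocalin 2, at 0.87 (SE 0.37, adjusted p = 0.344). S100a8 and S100a9, the calprotectin pair, stood at 0.16 and 0.31 with SEs of 0.44 and 0.49. Of 15 primary granule genes 0 passed in either direction, the median was 0.13, and Mpo, Elane and Prtn3 read 0.15, -0.09 and 0.13. Of 6 measured genes on the stefin list, which also holds cystatin C, Cst3, 2 were higher. These were Stfa3 and Cstb, cystatin B (0.69, adjusted p = 0.0123). All 6 were above 0, the lowest being Cst3 at 0.09, and the median was 0.67. In each fit with 1 RNA left out 1 of the 6 passed.

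Receptor chains and regulators followed. Csf2ra, the GM-CSF-specific alpha chain, read 1.39 and 0.78 in replicate 1 and 0.85 and 0.71 in replicate 2 and was fitted at 0.82 (SE 0.15, adjusted p = 0.00603). Its call was lost without parental 0 h replicate 1 (0.61, adjusted p = 0.34) or 48 h replicate 1 (0.77, adjusted p = 0.074). Il3ra, the IL-3-specific alpha chain, read 0.10 and -0.03 in replicate 1 and -0.06 and 0.15 in replicate 2 and was fitted at -0.03 (SE 0.06, adjusted p = 0.962). Csf2rb2, the IL-3-specific beta chain of the mouse, was fitted at -0.13 (SE 0.22, adjusted p = 0.943), and Csf2rb was not measured under that symbol. Of 28 measured genes on the receptor chain list 4 were higher and 0 lower. The others were the tumour necrosis factor receptors Tnfrsf1a (0.65, adjusted p = 0.0389) and Tnfrsf1b (0.64, adjusted p = 0.0153) and the IL-1 receptor antagonist Il1rn (0.86, adjusted p = 0.0412). With 1 RNA left out between 0 and 2 were higher, the 0 being without parental 0 h replicate 1 or 48 h replicate 1, and 1 was lower without parental 0 h replicate 2.

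Of 42 myeloid transcription factors 4 were higher and 0 lower, with a median of 0.04. Cebpb, a C/EBP factor of macrophage and emergency granulocyte programmes, read 0.98 and 0.94 in replicate 1 and 1.03 and 0.92 in replicate 2, 4 nearly equal values. It was fitted at 0.99 (SE 0.13, adjusted p = 0.000202) and kept its call without any 1 RNA, though not on print run 1 alone. Tfec, a macrophage factor of the Mitf family, read 0.97 and 0.78 in replicate 1 and 0.63 and 0.70 in replicate 2 and was fitted at 0.68 (SE 0.10, adjusted p = 0.000709). Cebpd read 0.90 and 0.93 in replicate 1 and 0.26 and 0.82 in replicate 2 and was fitted at 0.77 (SE 0.17, adjusted p = 0.0189), and Spi1, which encodes PU.1, at 0.42 (SE 0.10, adjusted p = 0.0233). Irf8 stood at 0.49 (adjusted p = 0.11). Tfec lost its call without parental 0 h replicate 1 (0.49), and Cebpd and Spi1 in 3 of the 4 fits with 1 RNA left out (0.69 to 0.93 for Cebpd and 0.29 to 0.55 for Spi1). Without parental 0 h replicate 2, 3 factors of the list were lower. Among 27 progenitor regulators 3 were higher and 2 lower. Id2, a helix-loop-helix protein that blocks E proteins, read 1.85 and 0.74 in replicate 1 and 1.46 and 1.20 in replicate 2 and was fitted at 1.32 (SE 0.21, adjusted p = 0.000859). Ikzf2, the zinc finger factor Helios, read -0.54 and -1.52 in replicate 1 and -0.86 and -0.88 in replicate 2 and was fitted at -1.07 (SE 0.14, adjusted p = 0.00016). Both kept their calls without any 1 RNA. Myb and Sox4, progenitor factors, stood at -0.46 (adjusted p = 0.11) and -0.40 (adjusted p = 0.0585), and Cd34 at -0.19 (adjusted p = 0.84).

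The lowest probe was that of Tmtc2, a membrane protein of the endoplasmic reticulum that takes part in O-mannosylation. It read -3.67 and -2.87 in replicate 1 and -2.49 and -2.81 in replicate 2. Every array was below -2.4, and the fitted difference of -2.83 (SE 0.31, adjusted p = 1.81e-05) was a 7.13-fold lower level. Sytl3 and Rab27b, a pair of the granule docking machinery, were also among the 4 lowest named probes. Sytl3, a synaptotagmin-like effector of Rab27, read -1.76 and -1.45 in replicate 1 and -2.06 and -1.51 in replicate 2 and was fitted at -1.81 (SE 0.20, adjusted p = 1.87e-05). Rab27b, the GTPase that tethers secretory granules, read -0.58 and -2.51 in replicate 1 and -1.22 and -1.92 in replicate 2. The 2 arrays of each dye pair differed more for Rab27b than the replicate means did, and the fit gave -1.64 (SE 0.25, adjusted p = 0.00067). Of 18 genes of granule traffic 3 were lower and 0 higher, the third being Rab37 at -0.43 (adjusted p = 0.0239). Sytl3 and Tmtc2 kept their calls without any 1 RNA. Rab27b lost its call without parental 0 h replicate 1 (-1.45), and Rab37 in 3 of the 4 such fits.

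Genes of basophils and mast cells were among the lowest. Cpa3, the mast cell carboxypeptidase, read -1.11 and -1.30 in replicate 1 and -1.63 and -1.42 in replicate 2, all below -1.1, and was fitted at -1.24 (SE 0.24, adjusted p = 0.00788). Fcer1a, the IgE-binding chain of the high-affinity receptor, read -0.98 and -1.67 in replicate 1 and -0.81 and -0.60 in replicate 2, with replicate 1 the lower. Its difference was -1.01 (SE 0.14, adjusted p = 0.000179). Gata2, the GATA factor of mast cells and progenitors, read -1.52 and -1.27 in replicate 1 and -1.04 and -1.43 in replicate 2 and was fitted at -1.01 (SE 0.19, adjusted p = 0.00687). Mcpt8, a basophil protease, read -0.75 and -1.12 in replicate 1 and -0.56 and -1.42 in replicate 2 and was fitted at -0.99 (SE 0.20, adjusted p = 0.0115). With Ndst2, the sulfotransferase of mast cell heparin (-0.30, adjusted p = 0.0302), 5 of 27 measured genes were lower and 0 higher. Of the 27, 9 had a difference above 0, and the median was -0.14. Other defining markers of these cells did not pass, with Kit at 0.25 (adjusted p = 0.605), Ms4a2 at -0.17 (adjusted p = 0.278), Tpsab1 at -0.02 (adjusted p = 0.988) and Cma1 at -0.14 (adjusted p = 0.828). In bulk RNA fewer cells of a type and less RNA per cell cannot be told apart. Without parental 0 h replicate 1, 0 genes of this list passed, and without any 1 of the other 3 RNAs 2 did. Cpa3 lost its call in all 4 of these fits (-1.28 to -1.07). Gata2 lost it in 3, all but that without 48 h replicate 2 (-1.08 to -0.77 over the 4). Mcpt8 lost it without parental 0 h replicate 1 or 48 h replicate 2 (-1.16 to -0.82 over the 4), and Fcer1a without parental 0 h replicate 1 (-1.20 to -0.76 over the 4).

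F2r, the thrombin receptor PAR1, read -1.61 and -1.91 in replicate 1 and -1.70 and -1.44 in replicate 2 and was fitted at -1.77 (SE 0.23, adjusted p = 0.000131), a call kept without any 1 RNA. Among 22 erythroid and megakaryocyte genes it was lower together with Itga2b, the platelet integrin CD41 (-0.72, adjusted p = 0.0125), and Hba-a1 (-0.68, adjusted p = 0.0381), and 0 were higher. Of the 22, 15 had a difference above 0, and the median was 0.07. Hba-a1 read -0.53 and 0.12 in replicate 1 and -0.90 and -1.39 in replicate 2, so its arrays did not share a sign. Itga2b lost its call in all 4 fits with 1 RNA left out and Hba-a1 in 2 of them, those without replicate 2 of either group. The call of Hba-a1 was also lost with the 4 arrays alone. Of 8 eosinophil genes 1 was lower and 0 higher, while 6 had a difference above 0 and the median was 0.04. The lower gene was the peroxidase Epx at -0.52 (adjusted p = 0.0138). Epx lost its call in all 4 fits with 1 RNA left out (-0.57 to -0.49). The surface protein Cd48 read -0.99 and -0.95 in replicate 1 and -0.93 and -0.97 in replicate 2, the tightest set of arrays among the lowest 15, and was fitted at -0.93 (SE 0.17, adjusted p = 0.00441). Cdh17, a cadherin, was at -0.97 (adjusted p = 0.00957), Spns2, the sphingosine-1-phosphate exporter, at -0.91 (adjusted p = 0.00546) and Ppp1r14bl at -1.02 (adjusted p = 0.00223). St6gal1, a sialyltransferase, read -2.05 and -1.51 in replicate 1 and -0.33 and -0.01 in replicate 2. Replicate 1 lay far below replicate 2, and the fitted -0.92 (SE 0.20, adjusted p = 0.0215) became -0.26 (adjusted p = 0.83) without parental 0 h replicate 1. Its call was also lost without 48 h replicate 1 (-0.71), with levels weighted by arrays (adjusted p = 0.066), with the 4 arrays alone (adjusted p = 0.34) and on print run 1 alone, and without parental 0 h replicate 2 it was -1.50. Its 3 probes all passed, from -0.92 to -0.32. The probe named Tcrb-V8.2 was fitted at -1.05 (SE 0.13, adjusted p = 7.8e-05); the platform annotation gives that symbol to 151 probes, of which 13 passed, so no gene is read from it. Without parental 0 h replicate 1 the calls of Cd48 (-0.79), Cdh17 (-0.76) and Ppp1r14bl (-0.68) were lost, and without 48 h replicate 2 those of Cd48, Cdh17, Ppp1r14bl and Spns2 (-0.72).

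Promoters of the named genes were searched for the cores of PU.1, whose gene Spi1 was higher, of GATA factors, of which Gata2 was lower, and of C/EBP, STAT5 and Myc. Windows of 300 bases from RefSeq, 250 before to 50 after the start of transcription, were found for 13 of the 15 highest and 11 of the 15 lowest genes (GRCm38.p6). The PU.1 core GAGGAA, on either strand, was in 7 of the 13 and 3 of the 11, against 28.3% of 32851 promoters. The 7 were Bcl2a1a, Bcl2a1c, Bcl2a1d, Clec5a, Ctss, Mmp8 and Stfa3, of which the 3 Bcl2a1 genes are near-identical copies. The 3 among the lowest were Fcer1a, Mcpt8 and Spns2. The GATA core AGATAA was in 2 of the 13, Ccr2 and Stfa3, against 11.2% of promoters. It was in 5 of the 11, Cpa3, Fcer1a, Spns2, St6gal1 and Sytl3. The C/EBP pattern TTGCNNAA was in 1 and 3, against 10.8%, the STAT5 pattern TTCNNNGAA in 0 and 1, against 8.30%, and the E-box CACGTG in 0 and 0, against 7.15%. Such matches are letters in a window and no evidence of binding. The stretch from 150 to 31 bases before the start is shown for 4 of the highest and 3 of the lowest genes whose matches fall in it, 5′ to 3′ along the gene, with every match to these patterns in capitals. In it GAGGAA or its complement TTCCTC is the PU.1 core, AGATAA or TTATCT the GATA core, and TTGCCCAA a C/EBP match.
Bcl2a1a, chr9:88956770-88956889, plus strand: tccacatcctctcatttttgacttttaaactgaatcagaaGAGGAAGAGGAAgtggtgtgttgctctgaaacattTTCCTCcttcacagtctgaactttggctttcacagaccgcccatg
Bcl2a1d, chr9:88731881-88732000, minus strand: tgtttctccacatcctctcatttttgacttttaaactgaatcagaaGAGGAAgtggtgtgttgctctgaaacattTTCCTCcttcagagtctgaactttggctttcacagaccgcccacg
Clec5a, chr6:40585836-40585955, minus strand: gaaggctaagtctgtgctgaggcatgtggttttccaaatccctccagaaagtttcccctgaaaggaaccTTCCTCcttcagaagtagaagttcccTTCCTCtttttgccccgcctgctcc
Stfa3, chr16:36455423-36455542, minus strand: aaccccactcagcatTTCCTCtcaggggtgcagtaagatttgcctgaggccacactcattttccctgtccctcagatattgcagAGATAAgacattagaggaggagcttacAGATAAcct
Cpa3, chr3:20242212-20242331, minus strand: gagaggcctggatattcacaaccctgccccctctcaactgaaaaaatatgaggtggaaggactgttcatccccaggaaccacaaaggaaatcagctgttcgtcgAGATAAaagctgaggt
Fcer1a, chr1:173227260-173227379, minus strand: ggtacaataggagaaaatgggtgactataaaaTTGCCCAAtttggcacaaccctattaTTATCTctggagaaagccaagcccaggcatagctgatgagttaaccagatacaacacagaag
Spns2, chr11:72475058-72475177, minus strand: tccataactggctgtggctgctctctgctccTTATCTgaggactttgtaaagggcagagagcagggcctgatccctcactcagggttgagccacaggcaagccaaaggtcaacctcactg
Bcl2a1a has the PU.1 core as a tandem repeat where Bcl2a1d has it 1 time, and both share the TTCCTC that follows. Stfa3, among the highest genes, also carries the GATA core, at 2 places, and Fcer1a, among the lowest, a C/EBP match. Fcer1a and Spns2 also carry the PU.1 core, outside the stretch shown. Not shown are Bcl2a1c and Ccr2, of the highest, with a PU.1 and a GATA match in this stretch. Nor are Mcpt8, St6gal1 and Ppp1r14bl, of the lowest, with a PU.1, a GATA and a C/EBP match in it.

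Of the MHC class II genes 3 were lower. These encode the chains that present peptides to helper T cells. H2-Aa read -1.29 and -0.87 in replicate 1 and -0.42 and -0.55 in replicate 2 and was fitted at -0.75 (SE 0.18, adjusted p = 0.0289). H2-Ab1 read -1.11 and -0.83 in replicate 1 and -0.34 and -0.54 in replicate 2 and was fitted at -0.69 (SE 0.15, adjusted p = 0.0183). Replicate 1 was the lower for both, without overlap with replicate 2. The loading factor H2-DMb2 was fitted at -0.43 (SE 0.11, adjusted p = 0.0402). H2-Ea had the lowest value, -1.07, but with an SE of 0.32 did not pass (adjusted p = 0.112). Of 13 measured genes of class II presentation 3 were lower and 1 higher, Ctss, which trims the invariant chain and was the 1 gene above 0. The list's median was -0.40, with -0.51 in replicate 1 and -0.20 in replicate 2. Without parental 0 h replicate 1 it was -0.13 and 0 genes were lower, and 0 were lower without either 48 h RNA. Without parental 0 h replicate 2, 4 were lower. Of 12 dendritic cell genes 0 passed in either direction.

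**Figure D3:**
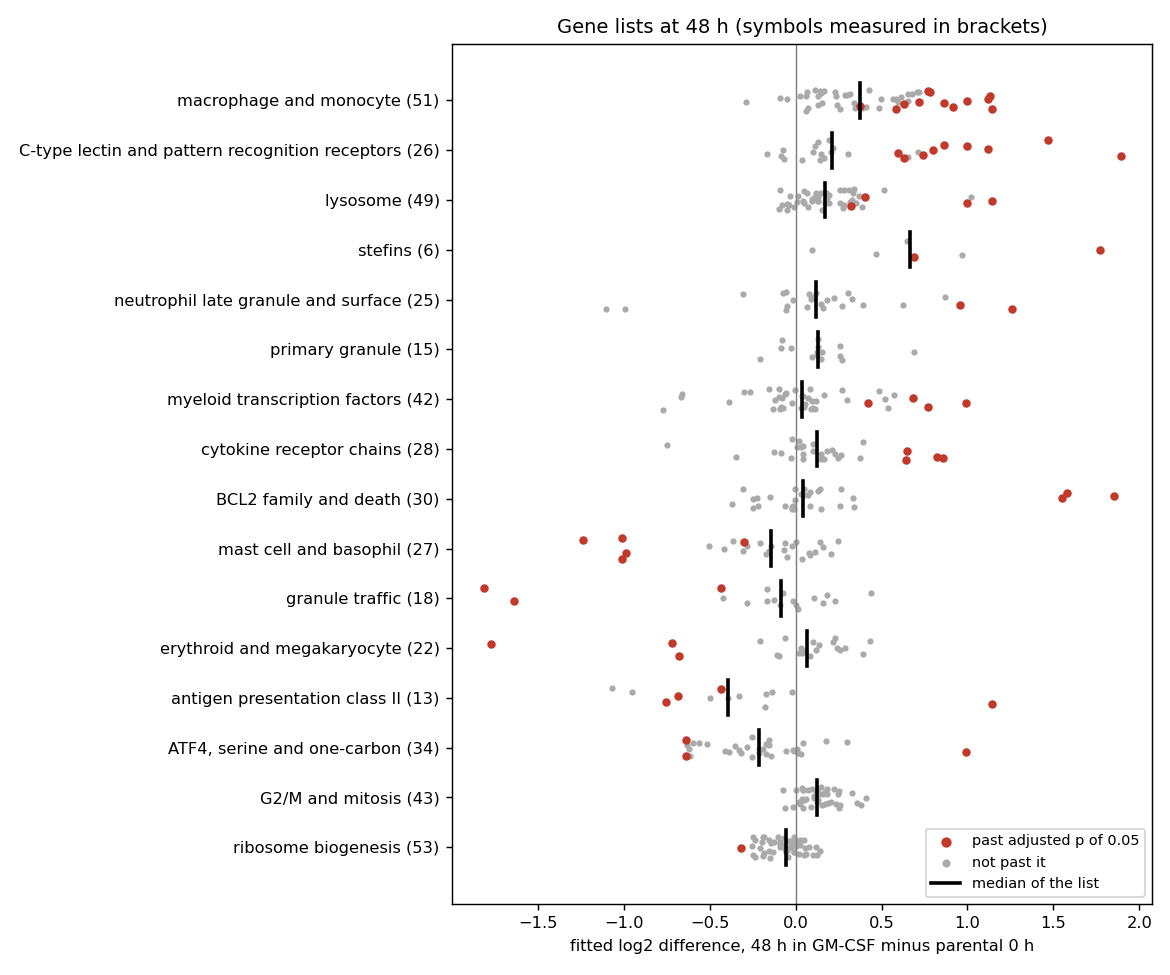
Each point is a gene of the list named on the left, with its fitted log2 difference of 48 h minus 0 h on the horizontal axis, and a black bar marks the median of the list. Points past the adjusted p of 0.05 are red; the macrophage and lectin lists hold 12 and 9 of them to the right of 0, and the mast cell list 5 to the left.

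Few genes of growth and division passed, but few of all symbols did, with 0.98% higher and 0.603% lower. Counts of 0 or 1 in the lists below are near that share. Of 46 genes of G1/S and replication and 43 of G2/M and mitosis, 0 passed in either direction. Their medians were 0.02 and 0.13, and 40 of the 43 mitosis genes were above 0. The probe of cyclin D2, Ccnd2, read 0.93 and 0.15 in replicate 1 and 2.20 and 1.69 in replicate 2, from near 0 in replicate 1 to over 2 in replicate 2. It was fitted at 1.16 (SE 0.26, adjusted p = 0.022), while the other probe of Ccnd2 stood at 0.25, and the call was lost in 3 of the 4 fits with 1 RNA left out (0.76 to 1.54). Ccnd1, cyclin D1, was higher at 0.42 (adjusted p = 0.0212) but was lost in 2 of them. Of 53 ribosome biogenesis genes 1 was lower, the polymerase I subunit Polr1e at -0.32 (adjusted p = 0.0303), and the median was -0.06. Of 34 genes of ATF4, serine and one-carbon metabolism 2 were lower and 1 higher, with a median of -0.21. Slc3a2, the heavy chain of amino acid exchangers, read -0.69 and -1.18 in replicate 1 and -0.34 and -0.40 in replicate 2 and was fitted at -0.64 (SE 0.11, adjusted p = 0.00198). Asns, asparagine synthetase, was fitted at -0.64 (SE 0.14, adjusted p = 0.0146), and the higher gene was Cebpb. Polr1e lost its call in all 4 fits with 1 RNA left out, Asns in 3, and Slc3a2 without parental 0 h replicate 1 (-0.37). No gene passed among 22 of sterol synthesis, 18 of glycolysis, 18 tRNA synthetases or 29 lymphoid genes, with medians of -0.12, 0.05, -0.15 and -0.01; the fit was limma's, and over all probes 2195 had an unadjusted p under 0.05.

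Few probes separated 48 h from 24 h. By limma 0 were higher and 12 were lower (0.0551% of probes), and at an unadjusted p under 0.05 there were 881 higher and 1126 lower. The one-sided split did not hold in other fits: there were 11 higher and 9 lower on print run 1 alone, with 2 of the 12 shared. There were 19 higher and 35 lower without 48 h replicate 1, 7 and 8 without 48 h replicate 2, 13 and 26 without 24 h replicate 2 and 25 and 134 without 24 h replicate 1. With levels weighted by arrays 0 passed. Print run 1 holds only replicate 1 at both times, so that fit sets 1 RNA against 1 RNA. Cpa3 fell by 1.34 on the log2 scale between 24 h and 48 h (SE 0.24, adjusted p = 0.0353). Against 0 h it stood at 0.59 at 12 h, 0.11 at 24 h, -1.24 at 48 h and -1.70 at 72 h. Itgae, the integrin CD103, was -1.21 (SE 0.20, adjusted p = 0.0274) against 24 h, having stood at 1.11 at 24 h and -0.10 at 48 h. Trf, which encodes transferrin, passed with 2 probes, the larger at -1.09 (SE 0.20, adjusted p = 0.0353). Of the mast cell and basophil list 2 of 27 genes were lower than at 24 h, Cpa3 and Fcer1a (-0.86, adjusted p = 0.0241), against 0.113% of all symbols. Ikzf2, at -0.74, was the 1 such gene among the progenitor regulators, with an adjusted p of 0.0418 over symbols but 0.051 over probes, where it did not pass. Cpa3 lost this call without 24 h replicate 1 or either 48 h RNA (-1.38 to -1.22), as did the larger Trf probe (-1.09 to -0.87), and Itgae without 24 h replicate 2 or either 48 h RNA (-1.24 to -1.16). Sytl3 stood at -0.48 at 12 h, -1.06 at 24 h and -1.81 at 48 h. At the same times Rab27b stood at -0.33, -0.89 and -1.64, and Tmtc2 stood at -2.04, -2.63 and -2.83. These series of differences share the 0 h RNAs.

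**Figure D4:**
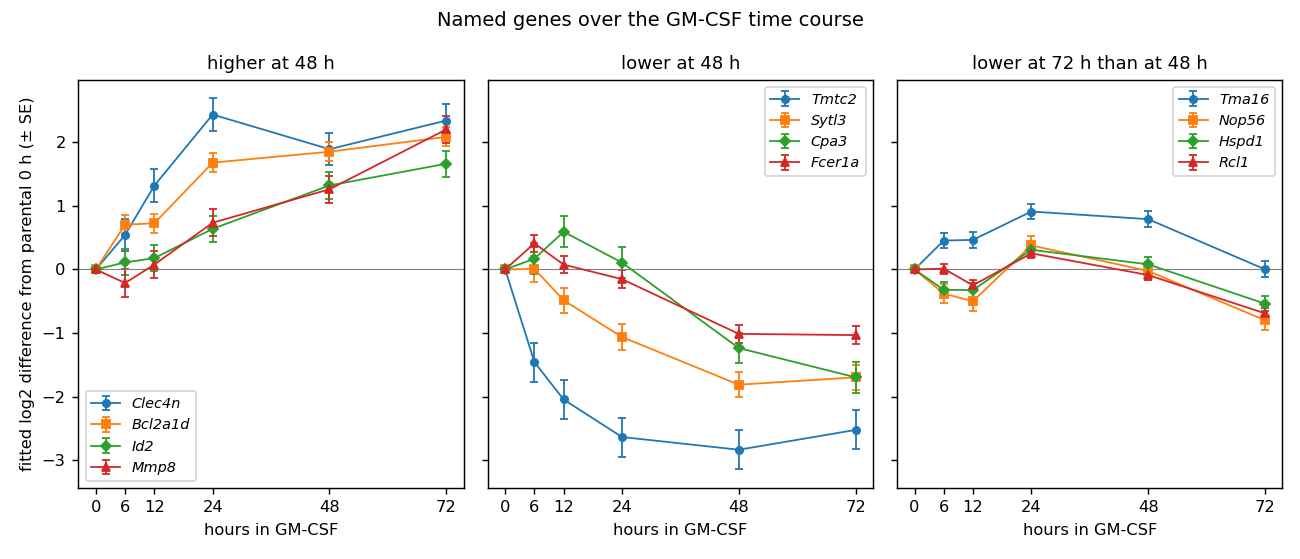
The horizontal axis is hours in GM-CSF and the vertical axis the fitted log2 difference from parental 0 h, with bars of 1 SE; every difference shares the same 0 h RNAs. Clec4n and Bcl2a1d stand at 2.44 and 1.68 by 24 h, Cpa3 and Fcer1a drop between 24 h and 48 h, and the genes on the right lie near 0 at 48 h, Tma16 excepted, and lower at 72 h.

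Between 48 h and 72 h the ribosome assembly genes Nop56, Rcl1 and Tma16 and the chaperonin gene Hspd1 fell. By limma 29 probes were lower at 72 h than at 48 h (0.133%) and 2 higher (0.00918%). This split also varied: there were 13 lower and 20 higher on print run 1 alone, with 1 of the 31 shared. There were 41 lower and 44 higher without 72 h replicate 2, 21 and 11 without 72 h replicate 1, 33 and 24 without 48 h replicate 1 and 11 and 10 without 48 h replicate 2. Weighted levels and scaled arrays each left 1 call. Here too print run 1 holds only replicate 1 at both times, so that fit sets 1 RNA against 1 RNA. Of the 29, 1 had differed from 0 h at 48 h, and the median of their 48 h differences from 0 h was 0.03, with a range of -0.24 to 0.79. Nop56, a core protein of box C/D small nucleolar particles, read -0.02, 0.06, -0.18 and 0.04 on the 4 arrays of 48 h over 0 h, all near 0. From 48 h to 72 h it changed by -0.77 (SE 0.15, adjusted p = 0.0338). Rcl1, a factor of 18S rRNA processing, read -0.22, 0.04, 0.01 and -0.11 and then changed by -0.60 (SE 0.08, adjusted p = 0.00153). Hspd1, the mitochondrial chaperonin HSP60, changed by -0.62 (SE 0.12, adjusted p = 0.0354), and Hnrnpab, an RNA-binding protein, by -0.57 (SE 0.11, adjusted p = 0.0361). Tma16, a factor bound to ribosome precursors, was the gene that had already moved, at 1.03, 0.76, 0.87 and 0.71 on the 48 h arrays. Its 48 h difference from 0 h was 0.79, and it changed by -0.79 (SE 0.12, adjusted p = 0.00813) to stand at 0.00 at 72 h. Of 53 ribosome biogenesis genes 3 were lower than at 48 h, Nop56, Npm1 (-0.51) and Nolc1 (-0.55), against 0.199% of symbols. The median of the list was -0.26 for 72 h against 48 h, and -0.11 for 48 h against 24 h. Tgfbi, an adhesion protein of the extracellular matrix, was the named gene that rose, by 0.71 (SE 0.10, adjusted p = 0.00426). Rcl1 and Tma16 kept their calls without any 1 of the 4 RNAs at these times; Nop56 and Hspd1 lost theirs in all 4 such fits, Hnrnpab in 3, and Tgfbi without 48 h replicate 2 (0.62).

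The 48 h response was also set against that of FDB1 cells expressing FI-Delta, a receptor mutant, between their own 0 h and 48 h without factor. The groups differ in both receptor and cytokine, whose parts cannot be told apart. By the limma test of the difference 1 probe had a higher response in GM-CSF (0.00459%) and 0 a lower one; at an unadjusted p under 0.05 there were 220 and 217. The probe was Tma16, with a response of 0.79 in GM-CSF and -0.31 in FI-Delta cells, a difference of 1.10 (SE 0.17, adjusted p = 0.0405). Its call was kept without 48 h replicate 1 in GM-CSF and lost without any 1 of the other 7 RNAs, namely both replicates of parental 0 h, FI-Delta 0 h and FI-Delta 48 h and 48 h replicate 2, at differences from 1.04 to 1.19. For the genes that led the comparison the responses were, in GM-CSF and in FI-Delta cells, 1.89 and 0.90 for Clec4n, 1.85 and 1.05 for Bcl2a1d, -2.83 and -2.92 for Tmtc2 and -1.24 and -2.21 for Cpa3. The differences were 0.99 (SE 0.36), 0.80 (SE 0.21), 0.08 (SE 0.43) and 0.98 (SE 0.34). Each had an adjusted p of 1, which does not show that the responses were alike.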

How the data were processed

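RNA of 36 samples (18 conditions, 2 replicates) was measured on spotted 2-colour arrays, 4 of 48 h against 0 h and 112 others. The deposited values were read as log2 of Cy5 over Cy3; the base and direction are not stated and are the likely reading, since limma, named without a version in the submitters' processing notes, writes such ratios and the labels give Cy5 as channel 1. Per the labels, the authors normalised the arrays and reordered the spots to print run 2; the background correction and normalisation method are not given in the sources used here. Here 1243 control spots were left out. Each RNA got a level by least squares over all arrays of its replicate number (8 arrays hold the 48 h RNAs, 32 the 0 h RNAs), fitted with condition and replicate number in limma 3.58.1 (R 4.3.3, lmFit and eBayes, 17 residual degrees of freedom), with Benjamini-Hochberg adjustment over 21797 probes and a threshold of 0.05. Replicate number is in the model because every array holds RNAs of 1 number. Of the probes, 16651 carried 1 symbol, 137 several and 5009 none, and 36 of the 288 called probes were unnamed. List counts and members use probes averaged by symbol, and the 30 leading genes single probes, so adjusted p-values can differ slightly. Named genes are the 15 highest and 15 lowest called probes with 1 sign on all 4 arrays, up to 4 called members per list, 4 receptor chains, and the 5 highest and lowest of the other contrasts; further genes were named after their values were seen, and were not rerun under the alternatives. The members and lists were chosen with earlier results of these data known, so no list test was made. The steps were tested on simulated data. The number of arrays limits the precision.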

Additional observations from a re-analysis of the deposited data

Results flagged for a closer look

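Among 68 genes tested, 3 had 1 of the 4 arrays of 48 h over 0 h far from the other 3 by Dixon's criterion. For 4 independent values chance gives about 1 in 20. Most of these genes were picked by their calls, and the 4 arrays are dye pairs of 2 replicates, so that rate may not apply here. Cebpd stood at 0.257 on the replicate 2 array with the 48 h RNA in Cy5, against 0.82 to 0.93 on the others. Ccl6, a macrophage chemokine, stood at 0.138 on the replicate 1 array with the 48 h RNA in Cy3, against 0.84 to 0.93. Ccnd1 stood at 0.930 on the replicate 2 array with the 48 h RNA in Cy3, against 0.07 to 0.14. The 48 h response of Tma16 differed between GM-CSF and FI-Delta cells by 1.10 on the log2 scale (adjusted p = 0.0405, limma's test of the difference).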

How the results depend on the processing

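The 288 probes called at 48 h kept their sign under every alternative run. Each alternative shares RNAs with the fit that picked these probes, so the kept signs are no separate support. The count was 168 with the 4 arrays alone, 182 with arrays scaled to a common median absolute deviation, 148 with print run 1 only and 45 to 183 with 1 RNA left out; it was within 1.5 times of 288 with direct arrays only, levels weighted by arrays, centred arrays and robust hyperparameters. Without the replicate block it was 355. Every array holds RNAs of 1 replicate number, so the block is part of the reported fit. For 48 h against 24 h the 12 calls became 30 without the replicate block, 0 with weighted levels (1136 probes at an unadjusted p under 0.05 by limma), 2 with scaled arrays, 20 with print run 1 only (11 higher and 9 lower, 2 shared) and 15 to 159 with 1 RNA left out. For 72 h against 48 h the 31 became 49 without the replicate block, 1 with weighted levels, 1 with scaled arrays, 33 with print run 1 only (20 higher and 13 lower, 1 shared) and 21 to 85 with 1 RNA left out. For the difference from FI-Delta the 1 call became 5 with direct arrays only, 2 with weighted levels, 0 with scaled arrays (405 at an unadjusted p under 0.05), 0 with print run 1 only (617) and 0 to 10 with 1 RNA left out. The cause of these shifts was not tested. Of the 30 named probes 12 kept their call under every alternative and 13 lost it without parental 0 h replicate 1. Print run 1 holds only replicate 1 of the GM-CSF times after 0 h, so its fits also leave 1 RNA in each of those groups. A lone RNA of a group was assumed to vary like the other groups.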

Other observations

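Some genes lay on opposite sides of 0 in the replicates, and were picked out after their values were seen. Fosb, an immediate early transcription factor, read -2.42 and -2.02 in replicate 1 and 0.14 and 0.88 in replicate 2. Egr1, another, read -0.68 and -0.65 in replicate 1 and 1.84 and 1.88 in replicate 2, and Fos -0.99 and -0.98 in replicate 1 and 0.31 and 0.04 in replicate 2. Gadd45a, a stress-induced growth arrest gene, read -1.08 and -2.11 in replicate 1 and 0.50 and 0.07 in replicate 2. Cd14, the lipopolysaccharide co-receptor, read -0.24 and -0.06 in replicate 1 and 1.73 and 1.41 in replicate 2. None of the 5 passed in the limma fit. Of 37 measured ERK and immediate early genes 2 were higher at 48 h, Phlda1 at 0.79 and Plaur, the urokinase receptor, at 0.59, whose call was lost in all 4 fits with 1 RNA left out (0.33 to 0.87). Tnfsf11, the osteoclast cytokine RANKL, read -0.95 and -2.93 in replicate 1 and -1.39 and -1.09 in replicate 2, and at -1.71 (SE 0.44, adjusted p = 0.0503) lay just outside the threshold.

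Of 33 measured interferon-related genes, B2m, the light chain of MHC class I, was higher at 0.68 and Ifi203 at 0.65, while Ifitm1 was lower at -0.87. Without 1 RNA the call of Ifitm1 was lost in all 4 fits (-0.90 to -0.55), that of Ifi203 in 3 (0.41 to 0.87) and that of B2m in 2, those without parental 0 h replicate 1 or 48 h replicate 1 (0.47 to 0.87 over the 4). B2m read 1.23 and 0.94 in replicate 1 and 0.28 and 0.44 in replicate 2.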
